A study of Homo sapiens with 4 samples.

Results

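RPL22 and 5 L-type paralogs of ribosomal proteins were examined in HCT116, an established human colorectal carcinoma line, after knockdown of WDR43. The 6 genes, RPL22, RPL22L1, RPL7L1, RPL26L1, RPL36AL and RPL39L, were chosen by name from the 29286 genes with values, and all 6 were found by their Ensembl identifiers. Cells had been infected with lentivirus for 48 h and selected with puromycin for 3 days. One group carried a control hairpin, named shNC2 in the sample titles and shNC here, and the other carried a hairpin against WDR43 (shWDR43), a nucleolar protein that takes part in assembly of the small ribosomal subunit. Each group had 2 libraries, 4 in all. The labels name a single hairpin against WDR43. They do not say that replicates were grown separately, and the p-values cover only the spread seen between libraries, which could be technical. The level of WDR43 was not analysed here, so the knockdown was not checked against its target.

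Each cytosolic ribosome holds 1 copy of nearly every ribosomal protein, and most of these proteins are made from a single active gene. A few have a second gene, the paralog, which encodes a similar protein that can take the place of the first one or act outside the ribosome. RPL22 (eL22) is an RNA-binding protein of the large subunit, and RPL22L1 is its paralog. In other systems loss of RPL22 is known to raise RPL22L1, and both proteins are known to bind RNA and to affect splicing. RPL26L1, RPL36AL and RPL39L are the second genes for RPL26, RPL36A and RPL39. RPL7L1 is more distant from RPL7 and is related to yeast Rlp7, a factor of large-subunit assembly. Many messages of ribosomal proteins begin with a run of pyrimidines, the 5′ terminal oligopyrimidine tract, through which mTOR signalling controls their translation. Translation was not measured here.

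How far reads of a paralog can be told from those of its parent depends on the sequence, so the coding sequences of 1 principal GENCODE release 29 transcript per gene were aligned. Identity was 65.4% for RPL22L1 and RPL22, 54.0% for RPL7L1 and RPL7, 84.2% for RPL26L1 and RPL26, 90.03% for RPL36AL and RPL36A, and 94.9% for RPL39L and RPL39. The stretch of 90 bases with the highest identity is shown for the RPL22 pair, since it shows how many bases separate these genes even where they are most alike, with each base that differs in capitals. It covers bases 202 to 291 of the RPL22L1 coding sequence and 220 to 309 of that of RPL22.
RPL22L1: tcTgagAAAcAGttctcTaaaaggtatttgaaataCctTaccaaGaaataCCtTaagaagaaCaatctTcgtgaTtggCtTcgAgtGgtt
RPL22: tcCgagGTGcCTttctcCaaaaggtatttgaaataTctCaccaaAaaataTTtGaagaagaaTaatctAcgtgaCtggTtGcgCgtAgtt
The RPL22 pair differed at 20 of the 90 bases, and its longest run of identical bases over the whole coding sequence was 17. The longest such run was 63 bases in the RPL36A pair. Over whole transcripts, RPL22 and RPL22L1 shared no window of 50 bases with each other, and neither did RPL26 and RPL26L1 or RPL7 and RPL7L1. RPL36AL shared 14 such windows with RPL36A, 2.01% of its own, and RPL39L shared 18 with RPL39.

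Other genes, many of them pseudogenes, shared more sequence with most of these transcripts. Of the 50-base windows of each transcript, 16.1% of those of RPL22 also lay in transcripts of other genes, 0.701% of those of RPL22L1, 21.1% of RPL7L1, 52.9% of RPL26L1, 14.3% of RPL36AL and 80.3% of RPL36A. Among the other parents the share was 66.2% for RPL7, 60.8% for RPL26 and 36.6% for RPL39. For RPL26L1 nearly all of these, 350 of 356 windows, lay in RPL26P30. That pseudogene was at 0.797 and 1.01 FPKM in shNC and 1.58 and 1.21 FPKM in shWDR43. The 12 RPL22 pseudogenes with values summed to 2.00 to 4.16 FPKM per library, at most 2.81% of RPL22. The 24 RPL36A pseudogenes summed to 21.2 and 18.6 FPKM in shNC and 9.95 and 14.2 FPKM in shWDR43, at most 9.82% of RPL36A. The way reads of near-identical copies were shared out by the authors was not given in the sources used here. Levels of RPL26L1, RPL36A, RPL7 and RPL26, and the pair shares that use them, are therefore uncertain.

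Promoter sequence was available for 8 of the 10 members and parents, from RefSeq on GRCh38.p14, as windows of 250 bases before and 50 bases from the annotated start. RPL39L and RPL7 were not matched. The 100 bases before the start and the 20 bases from it are given for the RPL22 and RPL36A pairs, since these pairs hold the 3 members with the highest FPKM. Capitals mark the unbroken pyrimidine run at the start and any match to the TATA-box letters TATAAA, the E-box letters CACGTG, the ETS-type letters CCGGAAG or the YY1-type letters AAGATGGCG, searched on both strands over the whole window. These motifs do not overlap one another.
RPL22, chr1:6199576-6199695, minus strand: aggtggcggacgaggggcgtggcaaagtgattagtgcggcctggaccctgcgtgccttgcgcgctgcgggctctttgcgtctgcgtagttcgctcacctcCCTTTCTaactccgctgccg
RPL22L1, chr3:170870176-170870295, minus strand: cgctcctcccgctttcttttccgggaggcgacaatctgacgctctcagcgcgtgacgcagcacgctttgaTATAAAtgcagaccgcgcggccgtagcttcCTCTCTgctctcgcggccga
RPL36A, chrX:101390911-101391030, plus strand: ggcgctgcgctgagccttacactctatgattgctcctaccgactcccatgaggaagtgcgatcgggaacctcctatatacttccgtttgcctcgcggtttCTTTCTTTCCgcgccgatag
RPL36AL, chr14:49620607-49620726, minus strand: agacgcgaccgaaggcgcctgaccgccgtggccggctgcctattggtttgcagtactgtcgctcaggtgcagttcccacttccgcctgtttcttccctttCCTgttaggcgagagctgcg
The run of pyrimidines from the start was 7 bases in RPL22, 6 in RPL22L1, 10 in RPL36A, 12 in RPL26 and 19 in RPL39, but 3 in RPL36AL and 0 in RPL7L1 and in both annotated starts of RPL26L1. A run of at least 5 was present in 5.17% of 35116 promoters of this length, and in 28 of the 50 promoters of large-subunit genes. RPL22L1 held TATAAA at 30 bases before the start (present in 11.5% of promoters) and AAGATGGCG at base 26 after it (1.75%), past the stretch shown. RPL7L1 held CACGTG, the E-box hexamer that MYC can bind (present in 7.26% of promoters), and CCGGAAG 16 bases before the start (10.3%). RPL26 held CCGGAAG 19 bases before the start. RPL22, RPL36AL, RPL36A, RPL39 and both starts of RPL26L1 held none of the 4 motifs in these windows. In the 50 large-subunit promoters the shares were 6% for TATAAA, 4% for CACGTG, 34% for CCGGAAG and 8% for AAGATGGCG. A match is a description of letters and not a bound site.

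In the plot of expression by library, the 6 genes spanned a wide range of FPKM, which is scaled by transcript length and library total. Setting genes side by side rests on that scaling, on the unit taken for the values and on how shared reads were counted. RPL22 was highest at 141 to 173 FPKM over the 4 libraries, followed by RPL36AL at 86.2 to 114, RPL22L1 at 41.5 to 59.3, RPL7L1 at 27.8 to 30.7 and RPL26L1 at 13.7 to 18.7 FPKM. RPL39L was listed at 0 in all 4 libraries. No neighbours in this order overlapped in any library. RPL22 ranked 41 of 47 large-subunit genes by mean FPKM, while RPL7 ranked 6, RPL26 ranked 8, RPL39 ranked 31 and RPL36A ranked 34. The principal transcript of RPL22 had 2078 bases, against 401 in RPL39 and 1101 in RPL7, so its rank depends on the length scaling. The ranks of RPL7, RPL26 and RPL36A are uncertain, as their levels are.

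**Figure D1:**
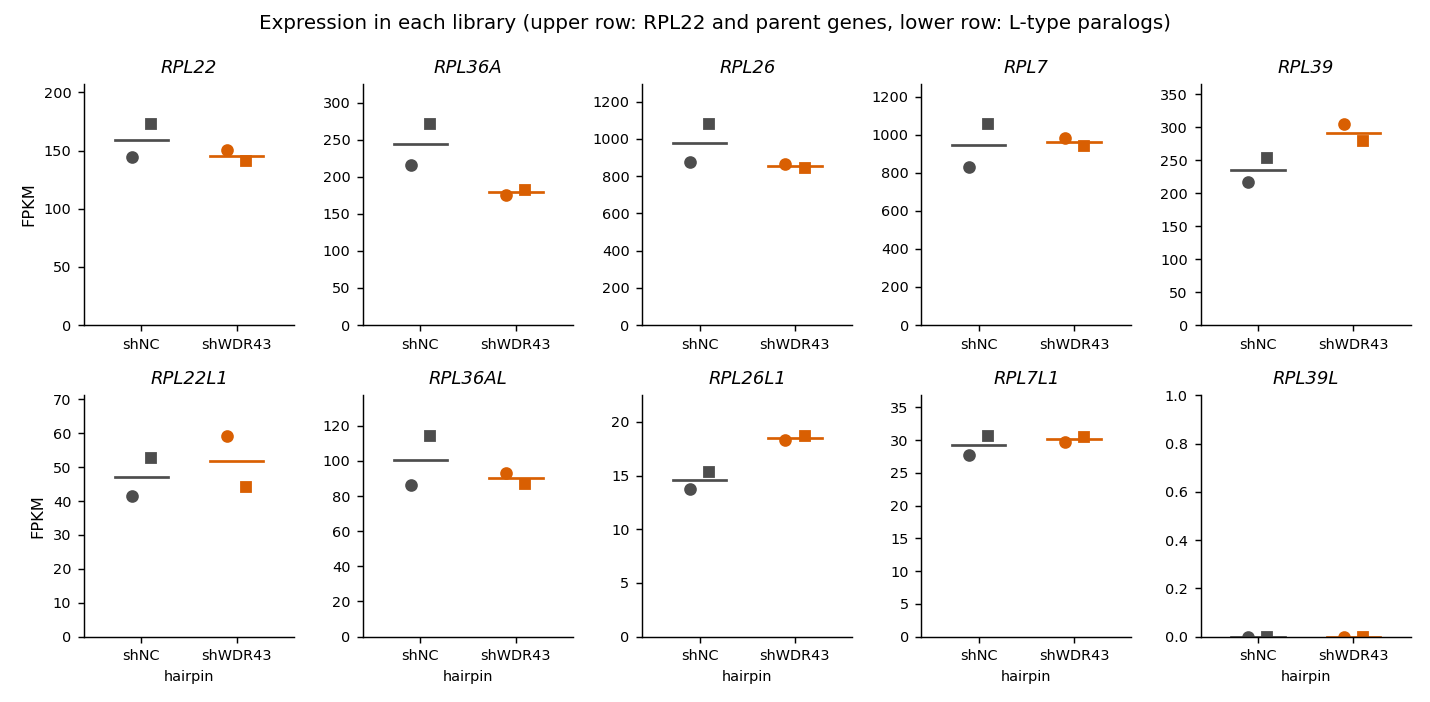
Deposited FPKM of RPL22 and the 4 parent genes (upper row) and of the L-type paralogs (lower row) in the shNC and shWDR43 libraries, with circles for replicate 1, squares for replicate 2 and lines for group means; each vertical axis starts at 0. RPL26L1 lies at 13.7 and 15.3 FPKM in shNC, and 18.3 and 18.7 in shWDR43, while the groups of RPL22, RPL22L1, RPL36AL and RPL7L1 overlap.

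No member passed the test for a difference between shWDR43 and shNC. Of the 6, 5 passed the filter of 1 FPKM in at least 2 libraries and were tested, RPL39L being left out. With limma on log2(FPKM + 1), 0 of these 5 had an adjusted p below 0.05, and 1, RPL26L1, had an unadjusted p below 0.05. The unadjusted p was below 0.05 for 3512 of all 13303 genes tested. Of the 13303, 6.26% passed the adjusted threshold, 4.79% as higher and 1.47% as lower in shWDR43. Of the 5, 3 had a positive difference and 2 a negative one, with a median of 0.04 on the log2 scale, against a median of 0.05 over all genes tested. The number of members that passed was 1 without shNC replicate 1 (RPL36AL), 1 without shNC replicate 2 (RPL26L1) and 0 without either shWDR43 library. With 1 control library left, the spread comes only from the 2 shWDR43 libraries, and the lone control is assumed to vary like them. Over all genes, 1762 and 2586 then passed without shNC replicates 1 and 2, against 833 with all libraries and 377 and 447 without shWDR43 replicates 1 and 2. A pass on 1 control library is given below as a description.

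RPL22 (ENSG00000116251) lies on chromosome 1 at 6185020 to 6209389 on the minus strand of GRCh38, in the GENCODE release 29 annotation. The RefSeq promoter stretch shown above, at 6199576 to 6199695, lies inside this span and not at its 5′ end, which is at 6209389. It was at 145 and 173 FPKM in shNC replicates 1 and 2 and at 151 and 141 FPKM in shWDR43 replicates 1 and 2. The highest value was a control library and the lowest a shWDR43 library, and the groups overlapped. The mean was 159 ± 19.97 FPKM in shNC and 146 ± 6.92 in shWDR43 (SD, n = 2 per group). The log2 difference was -0.12 ± 0.11 (SE; limma adjusted p = 0.542), with a 95% interval that ran from 0.768-fold to 1.10-fold. Its sign rested on 1 library, since it was 0.00895 without shNC replicate 2. RPL22 overlaps the oppositely transcribed RNF207 by 3915 bases, a gene at 7.85 to 8.997 FPKM. It also overlaps AL031847.2, a protein-coding gene on the same strand, by 12738 bases, and that gene was not among the genes with values. Whether strand was used when reads were counted was not given in the sources used here. Reads of overlapping genes may then not have been told apart.

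RPL22L1 (ENSG00000163584; chromosome 3, 170864875 to 170870483, minus strand) was at 41.5 and 52.6 FPKM in shNC, and 59.3 and 44.0 in shWDR43. The highest value was shWDR43 replicate 1 and the lowest shNC replicate 1, and the other shWDR43 library lay between the controls. The log2 difference was 0.13 ± 0.16 (SE; limma adjusted p = 0.650), with an interval from 0.846-fold to 1.41-fold. It was negative without shNC replicate 1, at -0.04, and without shWDR43 replicate 1, at -0.08. The values therefore give no direction for RPL22L1, and its interval leaves room for a 1.41-fold rise. Isoforms of RPL22L1 cannot be separated in values per gene.

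RPL26L1 (ENSG00000037241; chromosome 5, 172958729 to 172969771, plus strand) came closest to the threshold. This paralog of RPL26, a protein of the large subunit, was at 13.7 and 15.3 FPKM in shNC, and 18.3 and 18.7 in shWDR43. Both shWDR43 libraries lay above both controls. In all genes tested, 35.8% had shWDR43 wholly above shNC, 21.5% had it wholly below, and 57.3% thus had groups that did not overlap, so this pattern is common. Means were 14.5 ± 1.14 and 18.5 ± 0.2801 FPKM (SD, n = 2 per group), a ratio of 1.27. The log2 difference was 0.33 ± 0.09 (SE; limma adjusted p = 0.0709), with an interval from 1.09-fold to 1.46-fold. It passed without shNC replicate 2, at 0.41 (adjusted p = 0.0150), and was 0.26 to 0.41 when any 1 library was left out, with adjusted p of 0.0743 to 0.348 in the other 3 cases. RPL26 differed in the other direction, from 876 and 1081 FPKM to 865 and 845, a log2 difference of -0.19 ± 0.13 (limma adjusted p = 0.411). For RPL26 this was -0.34 (adjusted p = 0.0195) without shNC replicate 1 and -0.03 without shNC replicate 2. The antisense gene AC008429.1 overlaps RPL26L1 by 664 bases on the opposite strand and was at 0.728 to 1.00 FPKM.

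RPL36AL (ENSG00000165502; chromosome 14, 49618519 to 49620685, minus strand) encodes a protein nearly the same as that of RPL36A. It was at 86.2 and 114 FPKM in shNC, and 93.3 and 87.0 in shWDR43. Both shWDR43 values lay between the 2 control values. The log2 difference was -0.14 ± 0.13 (SE; limma adjusted p = 0.551), with an interval from 0.731-fold to 1.13-fold. It was -0.34 and passed without shNC replicate 1 (adjusted p = 0.0230), and was 0.06 without shNC replicate 2. Its parent RPL36A (ENSG00000241343; chromosome X, 101390824 to 101396154) was at 216 and 271 FPKM in shNC, and 175 and 183 in shWDR43, with both shWDR43 libraries below both controls. Its log2 difference of -0.44 ± 0.13 (limma adjusted p = 0.0786) had an interval from 0.604-fold to 0.904-fold and did not pass. It passed without shNC replicate 1, at -0.60 (adjusted p = 0.00430), and without shNC replicate 2, at -0.27 (adjusted p = 0.0244). It did not pass without shWDR43 replicate 1 (adjusted p = 0.408) or replicate 2 (adjusted p = 0.2802). A read-through gene, RPL36A-HNRNPH2, holds 284 of the 305 shared windows of RPL36A, lies on the same strand and was at 0.493 and 9.95 FPKM in shNC, and 1.18 and 3.57 in shWDR43.

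RPL7L1 (ENSG00000146223; chromosome 6, 42879618 to 42889925, plus strand) varied least of the 5 over the 4 libraries. It was at 27.8 and 30.7 FPKM in shNC, and 29.7 and 30.5 in shWDR43. The log2 difference was 0.04 ± 0.09 (SE; limma adjusted p = 0.792), with the narrowest interval of the 5 tested, from 0.898-fold to 1.18-fold. Its sign turned under upper-quartile scaling, at -0.03, and without shNC replicate 1, at -0.03. RPL7 was at 831 and 1058 FPKM in shNC, and 982 and 943 in shWDR43, a log2 difference of 0.04 ± 0.14 that was -0.03 under upper-quartile scaling and -0.14 without shNC replicate 1. RPL7 overlaps RDH10 on the opposite strand, and RDH10 was at 2.13 and 2.22 FPKM in shNC and 4.32 and 4.80 in shWDR43.

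RPL39L (ENSG00000163923; chromosome 3, 187120948 to 187180908, minus strand), a copy of RPL39 known for its activity in testis, was listed at 0 in every library. An exact 0 in values of this kind can also be a failed estimate, and 666 of 16283 protein-coding genes were at 0 in all 4 libraries. Its parent RPL39, a small protein near the peptide exit tunnel, was at 216 and 252 FPKM in shNC, and 305 and 279 in shWDR43. Both shWDR43 libraries lay above both controls, but the test was not passed (log2 difference 0.32 ± 0.12, limma adjusted p = 0.133). It passed without shNC replicate 2, at 0.43 (adjusted p = 0.00946). It was 0.21 without shNC replicate 1 (adjusted p = 0.101) and did not pass without either shWDR43 library (adjusted p = 0.699 and 0.448).

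**Figure D2:**
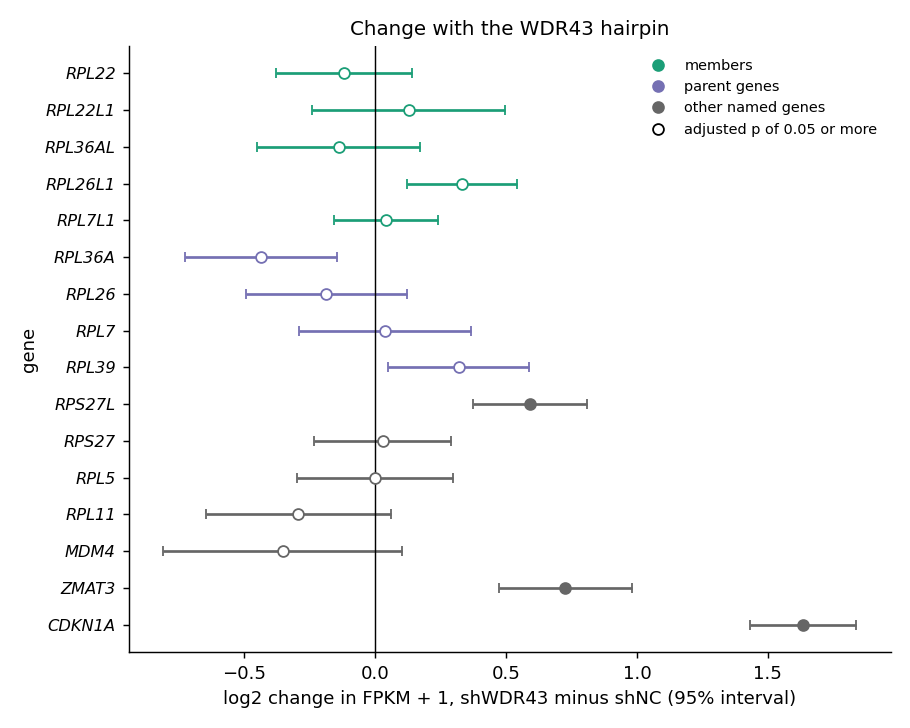
Log2 difference of FPKM + 1 between shWDR43 and shNC with its 95% interval for the 5 members tested (green), the parent genes (purple) and other named genes (grey); open circles mark an adjusted p of 0.05 or more. No member or parent gene is filled, and RPS27L, ZMAT3 and CDKN1A are, at 0.59, 0.73 and 1.63.

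The share of a pair that comes from the paralog does not depend on how a library is scaled. RPL22L1 made up 22.3% and 23.3% of the summed FPKM of RPL22 and RPL22L1 in shNC and 28.3% and 23.8% in shWDR43. The groups did not overlap, but shWDR43 replicate 2 lay within 0.5 points of shNC replicate 2. The mean difference of 3.24 points was 1.02 points without shWDR43 replicate 1 and 5.47 points without shWDR43 replicate 2.

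RPL36AL made up 28.5% and 29.7% of its pair in shNC and 34.8% and 32.3% in shWDR43, a difference of 4.45 points that stayed between 3.19 and 5.71 points when any 1 library was left out. RPL26L1 made up 1.54% and 1.40% of its pair in shNC and 2.07% and 2.17% in shWDR43, a difference of 0.650 points, with a range of 0.577 to 0.722 points when any 1 library was left out. In the RPL36A pair the parent had the larger log2 difference, -0.44 against -0.14, and in the RPL26 pair the paralog did, 0.33 against -0.19. RPL7L1 made up 3.23% and 2.82% of its pair in shNC and 2.94% and 3.13% in shWDR43, and these overlapped. With 2 libraries per group the two-sided exact permutation test cannot go below p = 0.333. It gave exact p = 0.333 for the first 3 pairs (0.444 adjusted over the 4 pairs by Benjamini-Hochberg) and exact p = 1 for RPL7L1. The shares are thus descriptions of these libraries.

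**Figure D3:**
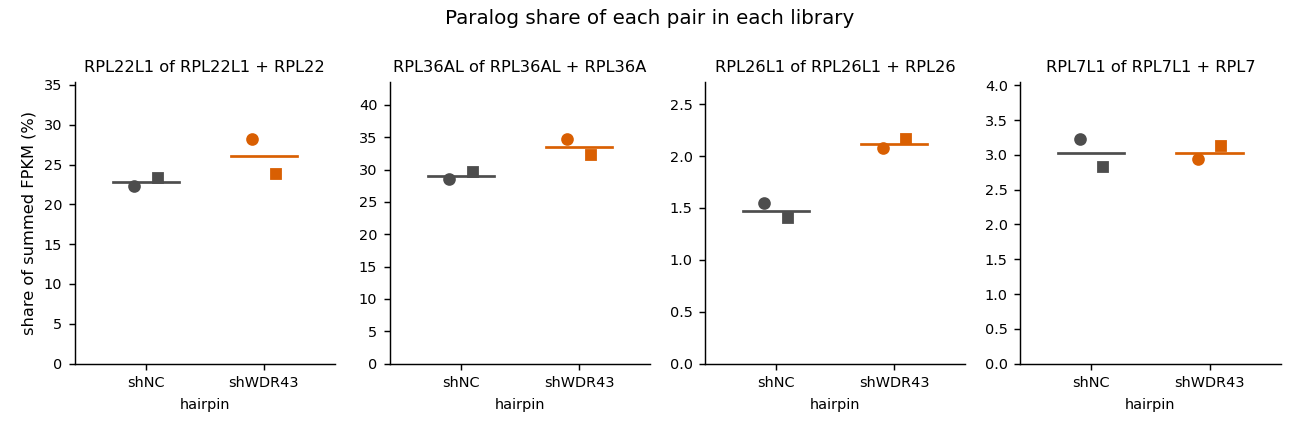
Share of the summed FPKM of each pair that comes from the paralog, in percent, in the shNC and shWDR43 libraries, with circles for replicate 1, squares for replicate 2 and lines for group means; each axis starts at 0. RPL36AL and RPL26L1 lie higher in both shWDR43 libraries, at 34.8% and 32.3% and at 2.07% and 2.17%, while the shares of RPL7L1 overlap.

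Most ribosomal protein genes differed between the 2 control libraries, and RPL22 moved with them. Of 47 large-subunit genes 46 were higher in shNC replicate 2 than in replicate 1, with a median log2 difference of 0.29, and all 32 small-subunit genes were, also with a median of 0.29. Over all genes tested 48.2% were higher in shNC replicate 2, with a median of -0.01. RPL22 differed by 0.26 between the controls, RPL22L1 by 0.33, RPL36AL by 0.40, RPL7L1 by 0.14 and RPL26L1 by 0.15. The 5 tested members were all higher in shNC replicate 2. For RPL22, RPL22L1, RPL36AL and RPL7L1 this gap was larger than the difference between the groups, and for RPL26L1, at 0.33 between groups, it was smaller.

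Set against the median large-subunit gene of the same library, RPL22 was at 38.8% and 35.4% in shNC and at 34.5% and 32.7% in shWDR43. The values of RPL22 did not overlap on this measure, by a margin of under 1 point. RPL36AL was at 23.1% and 23.4% against 21.4% and 20.2%. RPL36A was at 58.0% and 55.4% against 40.0% and 42.4%, with groups that did not overlap. This was not particular to RPL36A, since RPL14 was at 41.8% and 41.6% against 29.6% and 26.2%. RPL39 lay the other way, at 57.9% and 51.6% against 69.8% and 64.7%. RPL22L1 was at 11.1% and 10.7% against 13.6% and 10.2%, with groups that overlapped. When each library was scaled to the median ribosomal protein gene, a setting chosen after seeing the data, RPL36A had a log2 difference of -0.47 (limma adjusted p = 0.000836) and 0 of the 5 tested members passed. Of the 47 large-subunit genes 4 passed under this scaling, all lower in shWDR43, with RPL36A among them. RPL36A is itself among the genes that set this scale.

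**Figure D4:**
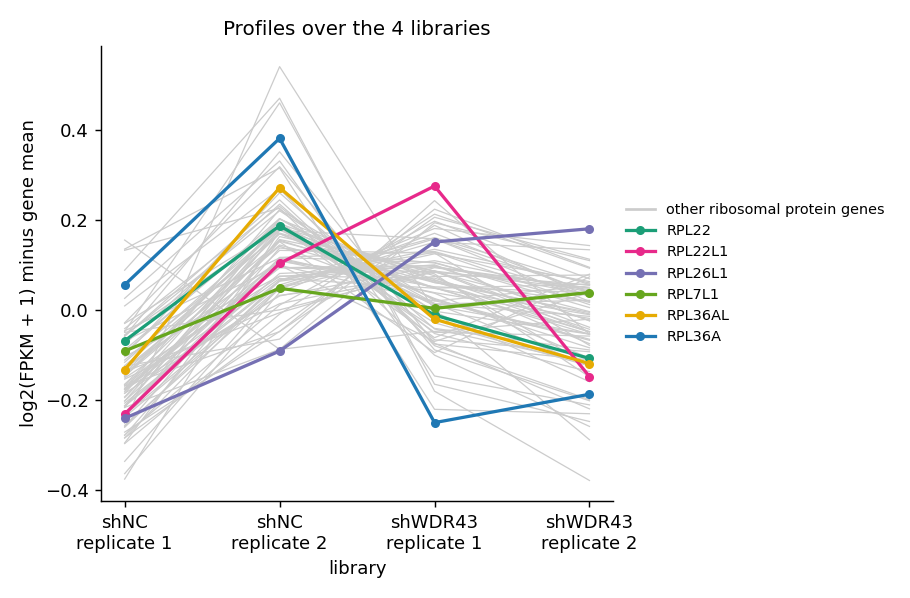
Log2(FPKM + 1) of each ribosomal protein gene minus its own mean over the 4 libraries, in the order shNC replicates 1 and 2 and shWDR43 replicates 1 and 2; grey lines are other cytosolic ribosomal protein genes. RPL22 and RPL36AL follow the common peak in shNC replicate 2, RPL22L1 peaks in shWDR43 replicate 1, and RPL26L1 lies higher in both shWDR43 libraries.

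With all 4 libraries 6.26% of all genes tested passed, which sets the scale for the wider ribosomal protein lists. None of 47 large-subunit genes passed with limma. The unadjusted p was below 0.05 for 5 of the 47, against 3512 of all 13303 genes tested. The median log2 difference of the 47 was -0.000539. Nearest were RPL37 at -0.36 (adjusted p = 0.0579) and RPL14 at -0.56 (adjusted p = 0.0587). In RPL14 both shWDR43 values, 129 and 113 FPKM, lay below the controls at 156 and 204. The count over all genes depended on which control was kept, as given above, and so did the calls here. Of the 47, those that passed without shNC replicate 1 all fell, and most of those without shNC replicate 2 rose. None passed when either shWDR43 library was left out. Of 32 small-subunit genes 1 fell, RPS15A, at -0.45, and 0 rose, with a median of 0.08. Of the 32, those that passed without shNC replicate 1 all fell, and nearly all of those without shNC replicate 2 rose. None of the 32 passed when either shWDR43 library was left out or under median-ratio scaling.

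Among the other paralog pairs, RPS27L rose. RPS27L, a paralog of a small-subunit protein, was at 6.21 and 6.04 FPKM in shNC, and 9.44 and 10.1 in shWDR43. The ratio was 1.59 and the log2 change 0.59 ± 0.09 (limma adjusted p = 0.0225). How this call held under the alternative settings is not reported here. Its parent RPS27 was at 343 and 388 FPKM against 387 and 358, with groups that overlapped and a log2 difference of 0.03. RPS27L was 1 of 5 tested genes on this list to pass, and 0 fell, where 6.26% of all genes tested passed. RPL3L, a muscle paralog of RPL3, was at 0.0725 FPKM or less, and RPL10L was not found by symbol among the genes with values. RPS4X was at 512 and 651 FPKM in shNC and 491 and 454 in shWDR43 and did not pass.

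Genes tied to RPL22 or to the 5S particle, the complex of 5S RNA with RPL5 and RPL11, were read from lists chosen by name. ZMAT3, an RNA-binding protein, rose from 5.73 and 4.78 FPKM to 9.19 and 9.46, at 0.73 ± 0.11 (limma adjusted p = 0.0203). How the calls of ZMAT3 and of CDKN1A below held under the alternative settings is not reported here. MDM4, whose splicing is known to respond to RPL22, was at 36.2 and 22.1 FPKM in shNC, and 20.9 and 23.1 in shWDR43. The groups overlapped, and the one high value was that of shNC replicate 1. UBAP2L, also reported as a splicing target, was at 52.3 and 45.0 FPKM against 45.5 and 43.2 (adjusted p = 0.432), with groups that overlapped. LIN28B was at 0.0172 FPKM or less in every library.

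CDKN1A, the gene of a cell cycle inhibitor, was at 73.8 and 75.7 FPKM in shNC, and 239 and 229 in shWDR43. It rose by 1.63 on the log2 scale (limma adjusted p = 0.000865), the largest change in the plot of log2 differences. RPL5 and RPL11 had log2 differences of -0.000539 and -0.29 and did not pass. RRS1, which helps bring the 5S particle into the large subunit, was at 4.13 and 5.24 FPKM against 6.74 and 6.49 (adjusted p = 0.0771).

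Genes whose profile over the 4 libraries lay nearest to a member were sought among 5269 protein-coding genes whose mean reached 10 FPKM. Likeness was the root-mean-square difference of the centred log2 profiles. For RPL22 they were RBM17, a splicing factor, at 0.00417, SLU7, a factor of the second splicing step, at 0.0116, and MACROD1, an ADP-ribosylhydrolase, at 0.0123. For RPL22L1 they were CCNH, the cyclin of the CDK-activating kinase, at 0.0329, SHKBP1 at 0.0382 and SELENOK, a selenoprotein of the endoplasmic reticulum, at 0.0434. Of the 100 genes nearest to RPL22, 10 were ribosomal protein genes, and of those nearest to RPL22L1, 2 were, where 78 and 79 of all 5268 genes compared were ribosomal protein genes. With 4 libraries such likeness is only a description, and with a pseudocount of 0.1 FPKM 2 of the 3 names were the same for each gene.

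The 4 libraries summed to 393582 to 413758 FPKM, and read totals were not used here, so depth is unknown. Mitochondrially encoded genes (MT- symbols) held 26.8% and 25.5% of the sum in shNC and 24.6% and 23.9% in shWDR43. Of 8 epithelial markers 7 reached 1 FPKM, VIL1 being below it, and their sum was 1794 to 2133 FPKM in shNC and 2556 to 2590 in shWDR43, of which CLDN4 and KRT8 rose and the other tested ones did not pass. EPCAM and CDH1 had log2 differences of -0.07 and -0.11. Of 8 markers of leukocytes, endothelium and fibroblasts 5 had values, with 3 of these below 1 FPKM in every library, and summed to 10.7 to 12.6 FPKM in shNC and 16.5 to 19.0 in shWDR43. CD68, a lysosomal protein gene, rose among them, and COL1A1 was at 5.69 to 7.80 FPKM. PTPRC, CD3E and COL1A2 were not found by symbol among the genes with values. The part of these differences in the members' values was not tested. In bulk RNA, fewer cells of a type and less RNA per cell cannot be told apart.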

How the data were processed

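RNA was sequenced from 4 HCT116 libraries, 2 per group. The input was 1 ug of total RNA and the kit an Illumina TruSeq kit, per the labels' protocols. HISAT2, Trimmomatic, RSEM, FastQC, edgeR and CASAVA 1.8 are named with GRCh38, without roles, per the submitters' processing notes. The values deposited by the authors were taken to be FPKM from their sums; no header states the unit, and they could be TPM summed over fewer genes. Of 29286 genes, 29170 had a symbol and 28468 a GENCODE release 29 position, and 1 blank entry was left out.

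Groups were compared with limma 3.58.1 (R 4.3.3), using log2(FPKM + 1) of genes that reached 1 FPKM in 2 or more libraries, with trend and robust moderation and 2 residual degrees of freedom per gene. P-values are two-sided, adjusted by Benjamini-Hochberg over 13303 genes, threshold 0.05. Fold intervals are on the FPKM + 1 scale, which understates changes of low genes. Shares used an exact permutation test. The model was tested on simulated data in which genes varied independently. The shift that ribosomal protein genes shared between the control libraries was not simulated, so the simulation does not bear on it. Python 3.11.15, Biopython 1.88 and matplotlib 3.10.9 were used. Members and lists were chosen with earlier results of these data known. Named genes are the members, their parents, RPS27L, RPS27, MDM4, CDKN1A, RPL5, RPL11, up to 4 changed genes per list with the smallest p or the nearest 2, and the 3 nearest profiles. Some listed items are not reported here. RRS1, UBAP2L, LIN28B, RPS4X, RPL3L, VIL1 and COL1A1 were added after their values were seen. Alternatives were a pseudocount of 0.1 FPKM, no filter, a filter at 5 FPKM, other scalings, robust settings off, a replicate block, a test against a 1.5-fold change, protein-coding genes alone and leaving out each library.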

Additional observations from a re-analysis of the deposited data

How the results depend on the processing

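Over all genes, 833 changed. The count was 17 with no filter, 452 with median-ratio scaling, 308 when scaled to the median ribosomal protein gene, 3 against a 1.5-fold change, and 377 to 2586 when 1 library was left out. The share of calls that were higher was 637 of 833 as deposited, 311 of 452 with median-ratio scaling, 327 of 614 with upper-quartile scaling and 181 of 308 when scaled to the median ribosomal protein gene. Members that passed numbered 0 to 1 when 1 library was left out and 0 in the other settings, except 1 with the crossed block. Of the large-subunit genes, 4 fell when scaled to the median ribosomal protein gene, 2 fell with a filter at 5 FPKM, with upper-quartile scaling and among protein-coding genes alone, and 0 to 16 passed when 1 library was left out. Of the small-subunit genes, 5 fell when scaled to the median ribosomal protein gene, 0 passed with no filter, with median-ratio scaling, with the replicate block and against a 1.5-fold change, and 0 to 17 passed when 1 library was left out. Of the 4 parent genes, 1 passed when scaled to the median ribosomal protein gene and 0 to 2 when 1 library was left out. The cause of these differences was not tested.

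The replicate numbers share only a number, and deviations of same-numbered libraries had a correlation of -0.147 across 13303 genes. With the replicate number as a block 563 genes and 0 members changed, and the share differences were 3.24, 4.45, 0.650 and 0.00765 points for RPL22L1, RPL36AL, RPL26L1 and RPL7L1. With crossed numbers as a block, chosen after seeing the data, 1954 genes changed, 2 parent genes, 4 large-subunit genes and 4 small-subunit genes passed, and RPL26L1 passed at 0.33 (limma adjusted p = 0.0345, range 0.0150 to 1 over its alternatives).

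Leaving out each library in turn gave log2 differences of -0.25 to 0.00895 for RPL22, -0.0839 to 0.34 for RPL22L1 (-0.0398 without shNC replicate 1), -0.0269 to 0.11 for RPL7L1, 0.26 to 0.41 for RPL26L1, -0.34 to 0.0629 for RPL36AL, -0.14 to 0.21 for RPL7, -0.34 to -0.03 for RPL26, -0.60 to -0.27 for RPL36A and 0.21 to 0.43 for RPL39. The difference in the RPL7L1 share was -0.200 to 0.215 points. Under upper-quartile scaling RPL7L1 was at -0.0263 and RPL7 at -0.0335. The other settings that used all 4 libraries kept the sign of the 5 tested members' differences. Without read totals, counting error cannot be given, and 2 libraries per group limit what can be detected.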
